A study of Mus musculus with 8 samples.

Results

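Expression of genes of glycolysis, lactate handling and the pentose phosphate pathway was followed across cultured mouse spermatogonial stem cells. The members are 35 listed genes, from glucose uptake to lactate export, with the pyruvate dehydrogenase kinases and the enzymes that make pentoses. A gene was taken to be measured where a probe set of the array carried its symbol alone, and its brightest such probe set (by mean over all 8 arrays) stood for it. By this rule 31 of the 35 genes were measured, among 19938 genes in all. Gapdh is not analysed here because its 25 probe sets also carry other symbols, and Gpi1, Eno1 and G6pdx, whose symbols stood alone on no probe set, are not analysed here either.

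The 8 arrays hold total RNA of cells labelled as spermatogonial stem cells, which sustain sperm production, in 3 groups. Of these, 2 arrays come from serially transplanted cells, labelled with a donor age of 1500 days and 14 to 18 months in culture. What the 1500 days count is not stated. A further 3 arrays come from donors of 8 days cultured equally for 14 to 18 months, and the last 3 from donors of 8 days cultured for 7 to 10 weeks. The titles call both long-culture groups aged and the short-culture group not aged. In the first group age and transplantation coincide and cannot be told apart, and the labels used here state no strain, medium or feeder cells. Nor do they say whether replicates are separate donors or cultures, so the p-values reflect variation among these arrays alone, possibly technical.

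Values are log2 signals after robust multi-array averaging (RMA), with array medians between 6.90 and 6.98, so a difference of 1 is a doubling; precision is limited by how few arrays there are. All 6 core germ cell markers and 12 of 15 markers of undifferentiated spermatogonia lay above 6.94, the median of all probe sets, on every array, and so did 18 of 20 fibroblast and feeder markers. The summed linear signal of the fibroblast markers, of which Lum alone stayed below the lower quartile throughout, was 14443 to 21609 in serial-transplant arrays, 21364 to 21776 in young long-culture arrays and 32706 to 49340 in short-culture arrays. Short-culture replicate 2 had the highest of these sums and stood apart from the other short-culture arrays, correlating with them at 0.991 and 0.990, whereas those correlated at 0.996 with each other. It also had the lowest germ cell sums of all arrays. In short-culture replicates 1, 2 and 3 core germ cell markers summed to 14431, 11990 and 15654. Markers of undifferentiated spermatogonia summed there to 15344, 11215 and 15133. Macrophage markers, with Adgre1 below the lower quartile, summed to 526 to 620 in serial-transplant arrays, 527 to 552 in young long-culture arrays and 859 to 1279 in short-culture arrays. Leydig cell markers were dim, with Hsd3b1 and Cyp17a1 below the lower quartile, and summed to 275 to 286 in serial-transplant arrays, 255 to 287 in young long-culture arrays and 455 to 806 in short-culture arrays. Of 23 G2 and M phase genes, 12 rose in young long against short culture, where 6.10% of all genes rose, and 4 rose in the serial-transplant line against short culture, where 4.10% did; with control rows included in the test these counts were 5 and 0. In such bulk RNA, fewer cells of a type and less RNA per cell cannot be told apart.

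Glycolysis splits glucose into pyruvate in the cytosol. Lactate dehydrogenase turns pyruvate into lactate, which leaves the cell through monocarboxylate transporters. Pyruvate dehydrogenase instead converts pyruvate to acetyl-CoA inside the mitochondrion, unless its kinases switch it off. The pentose phosphate pathway branches off at glucose 6-phosphate and yields NADPH and ribose. Many of these genes are targets of hypoxia-inducible factor and of Myc, and cultured spermatogonial stem cells are known to use glycolysis.

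In young-donor cells Eno2, Pgk1, Tpi1 and Aldoa fell in long relative to short culture, by 1.28-fold to 1.70-fold, and no member rose. These 4 fallers of 31 members stand against 6.69% of all genes that fell in this comparison, and the absence of risers against 6.10% that rose (limma across all probe sets, Benjamini-Hochberg adjusted p under 0.05). The median change of the members was -0.00 log2, against -0.04 for all genes, but the median size of a change was 0.31 log2, against 0.16. At an unadjusted p under 0.05, 14 of 31 members and 5703 of 19938 genes differed. The groups did not overlap in 11 members, 5 higher and 6 lower in long culture, while 34.0% of all genes showed no overlap in either direction. Among all genes 1217 rose and 1334 fell, a split that became 1507 and 1067 with arrays centred on their medians. On every array 30 of the 31 members lay above the median of all probe sets. With dim probe sets left out, 1 member rose and 5 fell, beside 1277 that rose and 1061 that fell of 10899 genes. The median size of a change among genes of like signal was not examined.

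**Figure D1:**
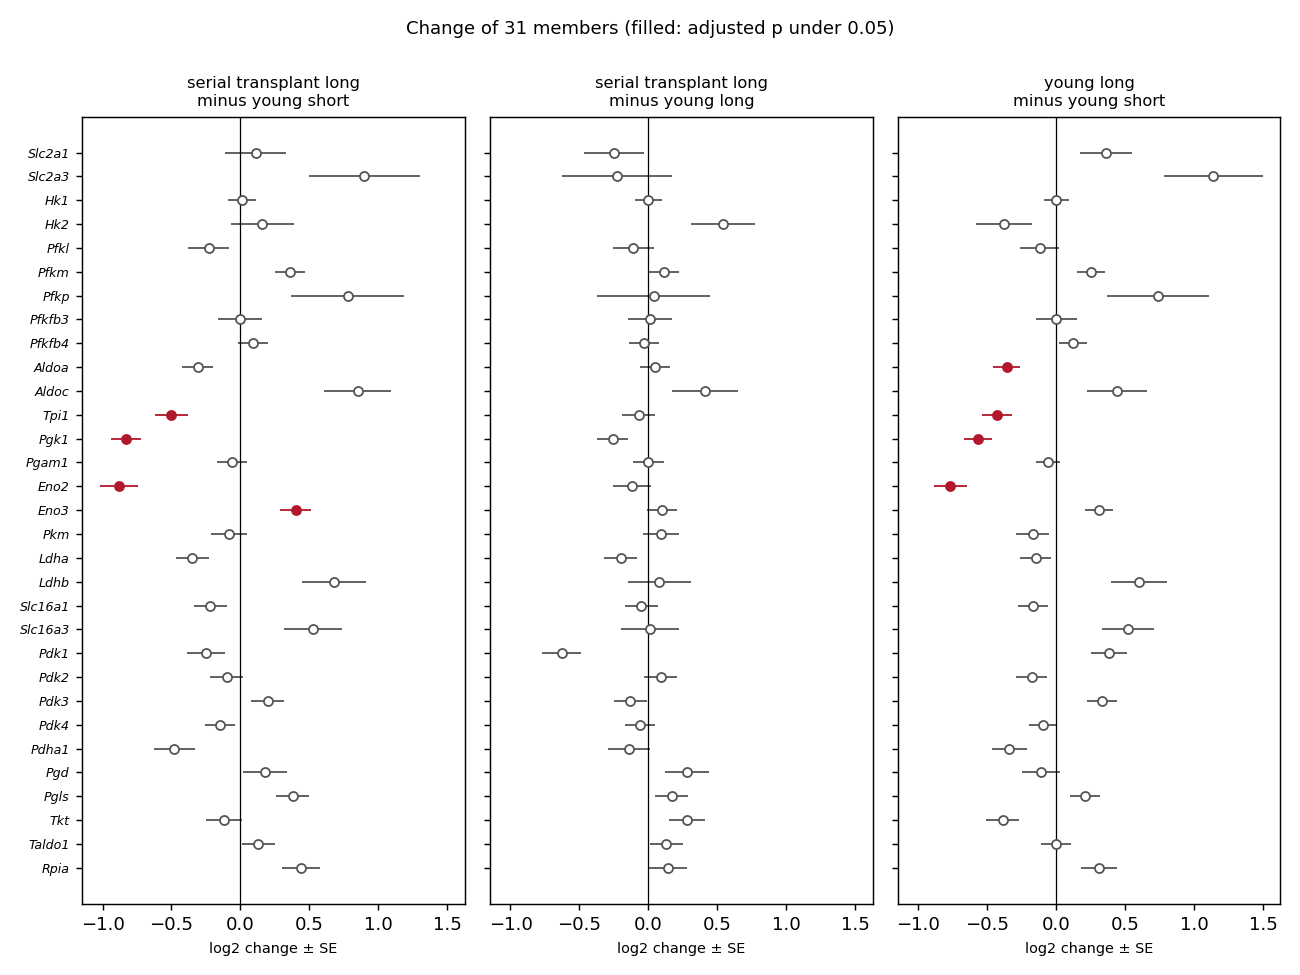
Change of each of the 31 measured members on the log2 scale (x axis) with its standard error from limma, members in pathway order from top to bottom, and 1 panel per comparison. Filled points passed an adjusted p of 0.05: Tpi1, Pgk1, Eno2 and Eno3 in the left panel, none in the middle panel, and Aldoa, Tpi1, Pgk1 and Eno2 in the right panel.

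Eno2 encodes gamma-enolase, the neuronal form of the enzyme that makes phosphoenolpyruvate. Its signal was 8.03 and 7.97 in serial-transplant arrays and 8.09, 8.18 and 8.08 in young long-culture arrays, against 8.66, 9.16 and 8.85 in short-culture arrays. Every long-culture array lay below every short-culture array, and the highest value was that of short-culture replicate 2. The change was -0.77 ± 0.12 log2 (SE, n = 3 and 3; limma adjusted p = 0.00484) in young long against short culture.

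Pgk1 encodes phosphoglycerate kinase, the first ATP-yielding step, and is X-linked. It read 11.14 and 11.22 in serial-transplant arrays and 11.34, 11.55 and 11.44 in young long-culture arrays, against 11.94, 12.14 and 11.94 in short-culture arrays. The 3 groups formed separate steps, the serial-transplant line lowest. Young long-culture cells differed from short-culture cells by -0.57 ± 0.10 log2 (limma adjusted p = 0.00741). Its 3 probe sets carry the same accessions and differed by at most 0.03, so they are not independent readings. Pgk1 has processed copies in the mouse genome, and what they add to the signal was not tested.

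Tpi1, the triose-phosphate isomerase, read 10.95 and 11.02 in serial-transplant arrays and 10.92, 11.12 and 11.12 in young long-culture arrays, against 11.45, 11.65 and 11.35 in short-culture arrays. Aldoa, the main aldolase outside liver and brain, read 11.98 and 12.11 in serial-transplant arrays and 11.90, 11.99 and 12.08 in young long-culture arrays, against 12.28, 12.47 and 12.31 in short-culture arrays. For both genes all long-culture arrays lay below all short-culture arrays. The changes were -0.43 ± 0.11 log2 for Tpi1 (limma adjusted p = 0.0288) and -0.36 ± 0.10 log2 for Aldoa (limma adjusted p = 0.0402) in young long against short culture. Eno2 and Pgk1 passed without any of the 8 arrays, each left out in turn. Aldoa was lost whichever array was left out (adjusted p = 0.0536 to 0.144). Leaving out young long-culture replicate 1 (adjusted p = 0.115), 2 (0.0524) or 3 (0.0788), or short-culture replicate 1 (0.0586) or 2 (0.0694), left Tpi1 above the threshold.

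**Figure D2:**
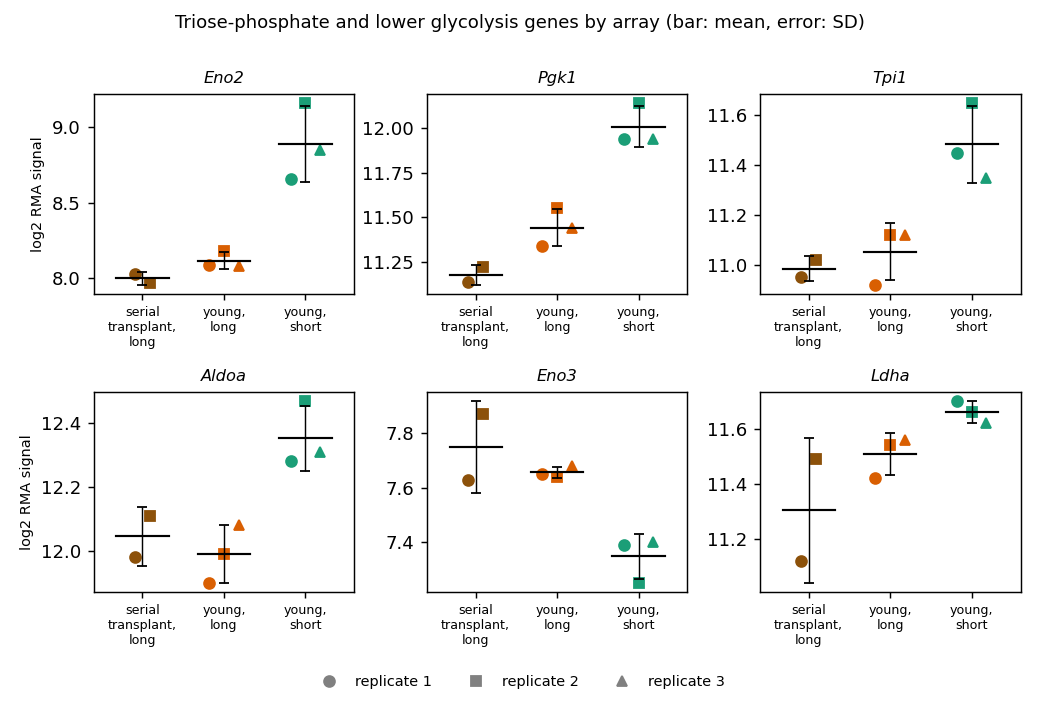
Log2 RMA signal (y axis) of 6 genes on each array, by group, with the symbol giving the replicate, the bar the mean and the error bar the SD (2 serial-transplant, 3 young long-culture and 3 short-culture arrays). All long-culture points of Eno2, Pgk1, Tpi1 and Aldoa lie below all short-culture points, as do those of Ldha, and those of Eno3 lie above them.

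The start regions of these 4 genes are shown because the members fell together; each runs from 250 bases before to 50 after the annotated start, on the strand of the gene, 5′ to 3′ (RefSeq, GRCm38.p6). Capitals mark the core of the hypoxia response element, searched as ACGTG and GCGTG on both strands, which overlaps the E-box CACGTG bound by Myc. Aldoa has 3 annotated starts, and the middle one is shown.
Eno2, chr6:124769624-124769923, minus strand: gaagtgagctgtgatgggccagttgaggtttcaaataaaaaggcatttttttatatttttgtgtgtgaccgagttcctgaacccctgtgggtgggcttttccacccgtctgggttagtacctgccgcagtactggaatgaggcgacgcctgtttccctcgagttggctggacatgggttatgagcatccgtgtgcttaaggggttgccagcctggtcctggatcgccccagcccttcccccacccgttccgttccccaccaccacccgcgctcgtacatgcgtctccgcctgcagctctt
Pgk1, chrX:106186850-106187149, plus strand: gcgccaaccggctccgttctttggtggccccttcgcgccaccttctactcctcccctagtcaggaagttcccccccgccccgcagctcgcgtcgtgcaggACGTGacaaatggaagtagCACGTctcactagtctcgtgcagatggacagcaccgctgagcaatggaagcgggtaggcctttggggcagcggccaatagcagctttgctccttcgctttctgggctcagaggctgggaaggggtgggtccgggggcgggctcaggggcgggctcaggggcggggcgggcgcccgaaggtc
Tpi1, chr6:124814109-124814408, minus strand: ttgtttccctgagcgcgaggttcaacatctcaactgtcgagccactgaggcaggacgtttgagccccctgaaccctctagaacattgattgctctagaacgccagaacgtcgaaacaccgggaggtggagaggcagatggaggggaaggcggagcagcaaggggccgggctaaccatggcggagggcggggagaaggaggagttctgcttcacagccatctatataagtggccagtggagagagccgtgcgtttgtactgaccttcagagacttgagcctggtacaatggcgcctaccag
Aldoa, chr7:126799205-126799504, minus strand: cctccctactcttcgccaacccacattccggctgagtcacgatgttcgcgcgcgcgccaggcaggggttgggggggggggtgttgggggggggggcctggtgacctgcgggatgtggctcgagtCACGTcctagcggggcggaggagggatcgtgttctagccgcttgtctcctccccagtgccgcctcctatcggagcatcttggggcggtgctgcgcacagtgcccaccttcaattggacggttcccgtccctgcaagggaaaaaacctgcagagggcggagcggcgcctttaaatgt
Pgk1 held 2 matches, beginning 150 and 131 bases before the start, and the Aldoa window held 1, beginning 126 bases before it. Of the other Aldoa windows, 1 overlaps the window shown and held the same match, which begins 202 bases before its own start, and 1 held none. The windows of Eno2 and Tpi1 held none of these letters. Of the measured members, 30 had such a window, and 28 of them, all but Eno2 and Tpi1, had a match. By window, 34 of 43 (79.1%) held a match, against 43.8% of all 32851 windows in the table. Overlapping windows of 1 gene, as in Aldoa, can count the same match again. The E-box was found in 5 of the 43 windows (11.6%), against 7.15% of all windows. The GC box GGGCGG was also more frequent, in 24 of the 43 windows (55.8%), against 35.7% of all windows. What these shares reflect was not tested. Eno2 and Tpi1 lie close together on chromosome 6, with 3 genes annotated between them, of which the protein-coding Lrrc23 changed by 0.08 log2 in young long against short culture (limma adjusted p = 0.692).

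No other member of lower glycolysis passed in this comparison. Eno3, the muscle enolase, read 7.63 and 7.87 in serial-transplant arrays and 7.65, 7.64 and 7.68 in young long-culture arrays, against 7.39, 7.25 and 7.40 in short-culture arrays. It was thus higher in every long-culture array, at a low signal, and the change of 0.31 ± 0.10 log2 in young cells missed the test (limma adjusted p = 0.0714). Pkm, the pyruvate kinase of most tissues and tumours, read 11.81 and 11.77 in serial-transplant arrays and 11.50, 11.83 and 11.79 in young long-culture arrays, against 11.93, 11.70 and 11.99 in short-culture arrays. These groups overlapped, with a change of -0.17 ± 0.12 log2 (limma adjusted p = 0.413) for the young line. Its brightest probe set carries no RefSeq accession, and the probe set that does gave -0.16 ± 0.12 log2. Pgam1, the phosphoglycerate mutase, stayed between 10.97 and 11.15 on all arrays.

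None of the measured members of glucose uptake, hexose phosphorylation and the phosphofructokinase step passed in any comparison. Slc2a1, the ubiquitous transporter GLUT1, read 10.63 and 10.87 in serial-transplant arrays and 11.03, 10.94 and 11.05 in young long-culture arrays, against 10.63, 10.16 and 11.14 in short-culture arrays. Slc2a3, the high-affinity transporter GLUT3, read 10.22 and 10.98 in serial-transplant arrays and 10.66, 10.95 and 10.88 in young long-culture arrays, against 9.62, 8.80 and 10.67 in short-culture arrays. In both genes short-culture replicate 2 was lowest of all arrays, and replicate 3 was level with the long-culture arrays. The change of Slc2a3 was the largest of any member, at 1.14 ± 0.36 log2 in young long against short culture, but did not pass (limma adjusted p = 0.0670). Slc2a1 changed by 0.36 ± 0.19 log2 (limma adjusted p = 0.267).

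Pfkp, the platelet-type phosphofructokinase, showed the same spread: 9.30 and 10.00 in serial-transplant arrays, 9.16, 9.90 and 9.77 in young long-culture arrays, and 8.66, 8.11 and 9.86 in short-culture arrays. Hk2, the inducible hexokinase that commits glucose to the cell, read 10.32 and 10.55 in serial-transplant arrays and 9.45, 10.24 and 9.98 in young long-culture arrays, against 10.31, 9.92 and 10.59 in short-culture arrays. Neither separated long from short culture. Pfkp differed by 0.74 ± 0.37 log2 (limma adjusted p = 0.234) and Hk2 by -0.38 ± 0.20 log2 (limma adjusted p = 0.266) in young long against short culture. Pfkl and Pfkm, the liver and muscle subunits, differed by -0.12 and 0.25 log2, and Pfkfb3 and Pfkfb4, which make the activator fructose 2,6-bisphosphate, by -0.00 and 0.12 log2, and none of these 4 passed. Pfkm was nevertheless higher on every long-culture array (9.80 to 10.11) than on any short-culture array (9.60 to 9.76).

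The rule's probe set for Hk1, the constitutive hexokinase, needs a caution. It lay between 12.76 and 12.84 on all 8 arrays, and its only accession is shared by 18 probe sets, of which 16 also carry the ribosomal protein gene Rpl17. The other Hk1 probe set, which has RefSeq accessions, ran from 8.41 to 8.83 and changed by 0.10 ± 0.11 log2 in young long against short culture (limma adjusted p = 0.642). The level of Hk1 given by the rule is therefore not taken as a reading of hexokinase 1.

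None of the 4 genes of lactate and its transport passed in any comparison. Ldha, the subunit that favours lactate formation, read 11.12 and 11.49 in serial-transplant arrays and 11.42, 11.54 and 11.56 in young long-culture arrays, against 11.70, 11.66 and 11.62 in short-culture arrays. Every long-culture array was below every short-culture array, but the difference was small, -0.15 ± 0.11 log2 in the young line (limma adjusted p = 0.435). Ldhb, the subunit that favours pyruvate, ran from 8.92 to 9.08 in serial-transplant arrays and from 8.66 to 9.21 in young long-culture arrays, against 8.00 to 8.83 in short-culture arrays, a change of 0.60 ± 0.20 log2 for the young line (limma adjusted p = 0.0827). Its second probe set gave 0.36 ± 0.20 log2.

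Slc16a3, the exporter MCT4 of glycolytic cells, read 8.56 and 8.75 in serial-transplant arrays and 8.44, 8.75 and 8.73 in young long-culture arrays, against 8.04, 7.73 and 8.59 in short-culture arrays. Slc16a1, the two-way transporter MCT1, read 10.65 and 10.76 in serial-transplant arrays and 10.74, 10.72 and 10.82 in young long-culture arrays, against 10.88, 11.13 and 10.77 in short-culture arrays. Both genes overlapped between young long and short culture, at 0.52 ± 0.19 log2 for Slc16a3 (limma adjusted p = 0.0947) and -0.17 ± 0.11 log2 for Slc16a1 (limma adjusted p = 0.380).

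**Figure D3:**
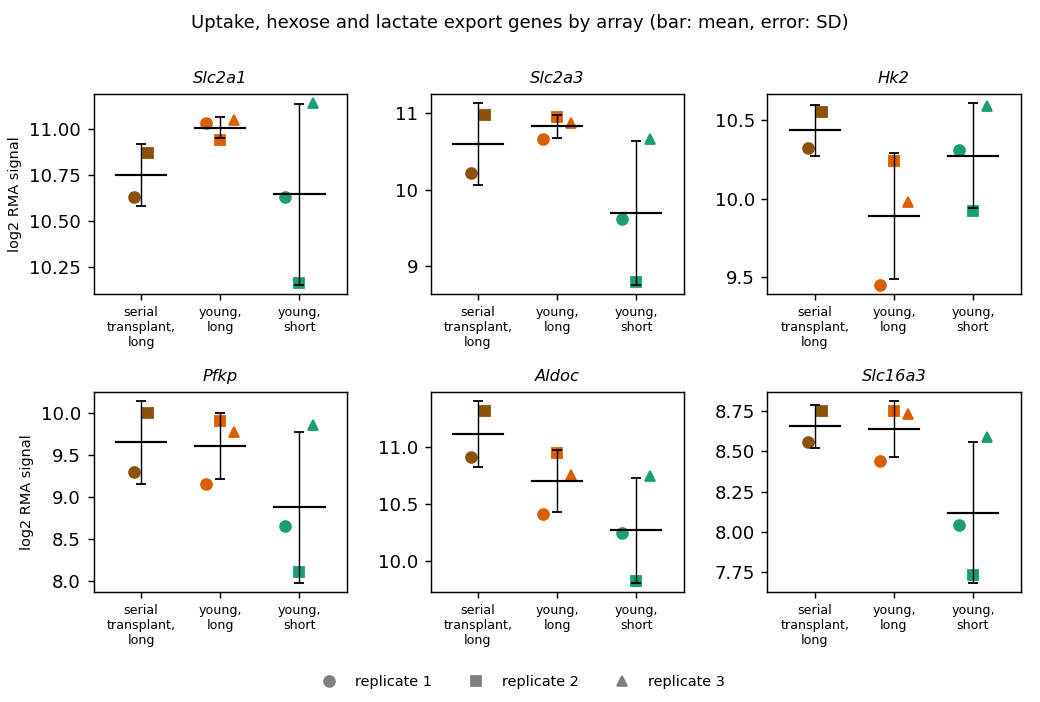
Log2 RMA signal (y axis) of 6 genes on each array, by group, with the symbol giving the replicate, the bar the mean and the error bar the SD (2 serial-transplant, 3 young long-culture and 3 short-culture arrays). In all 6 genes short-culture replicate 2 (square) is the lowest and replicate 3 (triangle) the highest of the short-culture arrays.

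In 12 of 31 members replicate 2 was lowest and replicate 3 highest, against 16.9% of all genes. These 12 include Pgam1 and the Hk1 probe set described above, whose short-culture arrays hardly differed (SD 0.05 and 0.02). In 15 members, the fallers Eno2, Pgk1, Tpi1 and Aldoa among them, replicate 2 was instead the highest, as in 41.4% of all genes. The SD over the short-culture arrays was 0.93 for Slc2a3, 0.90 for Pfkp, 0.49 for Slc2a1, 0.46 for Aldoc, 0.45 for Ldhb, whose replicate 2 was highest, and 0.43 for Slc16a3, where the median gene had 0.14, and each of these SDs exceeded those of at least 97.4% of genes. With short-culture replicate 3 left out, 5 members rose in limma for young long against short culture, where none did in the fit used throughout. These were Slc2a3 (1.62 log2, adjusted p = 0.00267), Pfkp (1.23, adjusted p = 0.0113), Slc16a3 (0.76, adjusted p = 0.00740), Aldoc (0.68, adjusted p = 0.0407) and Slc2a1 (0.61, adjusted p = 0.0241). Tkt took the place of Aldoa among the 4 that fell. With replicate 2 left out Ldhb alone rose (0.86, adjusted p = 0.00834). The fibroblast sums of short-culture replicates 1, 2 and 3 were 34082, 49340 and 32706, and their part in this spread was not tested. Nor was the part of the germ cell signal, which was lowest in replicate 2.

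Aldoc, the brain aldolase, read 10.91 and 11.32 in serial-transplant arrays and 10.41, 10.95 and 10.75 in young long-culture arrays, against 10.24, 9.82 and 10.74 in short-culture arrays. It did not pass in any comparison in the fit used throughout. Under 5 of 11 other settings, apart from leaving out 1 array, it passed in the serial-transplant line against short culture (lowest limma adjusted p = 0.0252). Isozymes of the same step were set against each other within the arrays. Since different probe sets cannot be set against each other in level, each pair is given as the within-array log2 difference relative to its short-culture mean, without a test, because the pairs were chosen with the changes known. Aldoc over Aldoa stood at 1.02 and 1.30 in serial-transplant arrays and 0.60, 1.05 and 0.76 in young long-culture arrays, against 0.04, -0.56 and 0.52 in short-culture arrays. Eno3 over Eno2 stood at 1.14 and 1.44 in serial-transplant arrays and 1.10, 0.99 and 1.14 in young long-culture arrays, against 0.27, -0.37 and 0.10 in short-culture arrays. Both differences were higher in every long-culture array than in any short-culture array. Ldhb over Ldha stood at 1.14 and 0.92 in serial-transplant arrays and 1.13, 0.69 and 0.44 in young long-culture arrays, against -0.36, 0.52 and -0.16 in short-culture arrays, where short-culture replicate 2 reached into the long-culture range.

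None of the 5 members at pyruvate dehydrogenase passed in any comparison. Pdk1, the hypoxia-inducible kinase, read 9.51 and 9.30 in serial-transplant arrays and 10.25, 9.91 and 9.95 in young long-culture arrays, against 9.64, 9.49 and 9.83 in short-culture arrays. The young long-culture arrays were thus above both other groups. The change was 0.38 ± 0.13 log2 for the young line in long against short culture (limma adjusted p = 0.0812). Pdk3 was 0.33 ± 0.11 log2 higher without passing (limma adjusted p = 0.0772), Pdk2 differed by -0.18 log2, and Pdk4 stayed at 4.87 to 5.21, a level that lies under the lower quartile of every array. Pdha1, the catalytic subunit's main form and X-linked, changed by -0.34 ± 0.13 log2 (limma adjusted p = 0.123).

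None of the 5 measured pentose phosphate genes passed in any comparison. Tkt, the transketolase of the non-oxidative branch, came nearest in young long against short culture, at -0.39 ± 0.12 log2 (limma adjusted p = 0.0514), with 7.89 to 7.94 in young long-culture arrays and 8.08 to 8.52 in short-culture arrays. Rpia, which isomerises ribose 5-phosphate, differed by 0.31 ± 0.13 log2 and Pgls, the lactonase of the oxidative branch, by 0.21 ± 0.11 log2, while Taldo1 differed by 0.00 log2. Pgd, the NADPH-forming dehydrogenase, differed by -0.11 ± 0.14 log2.

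**Figure D4:**
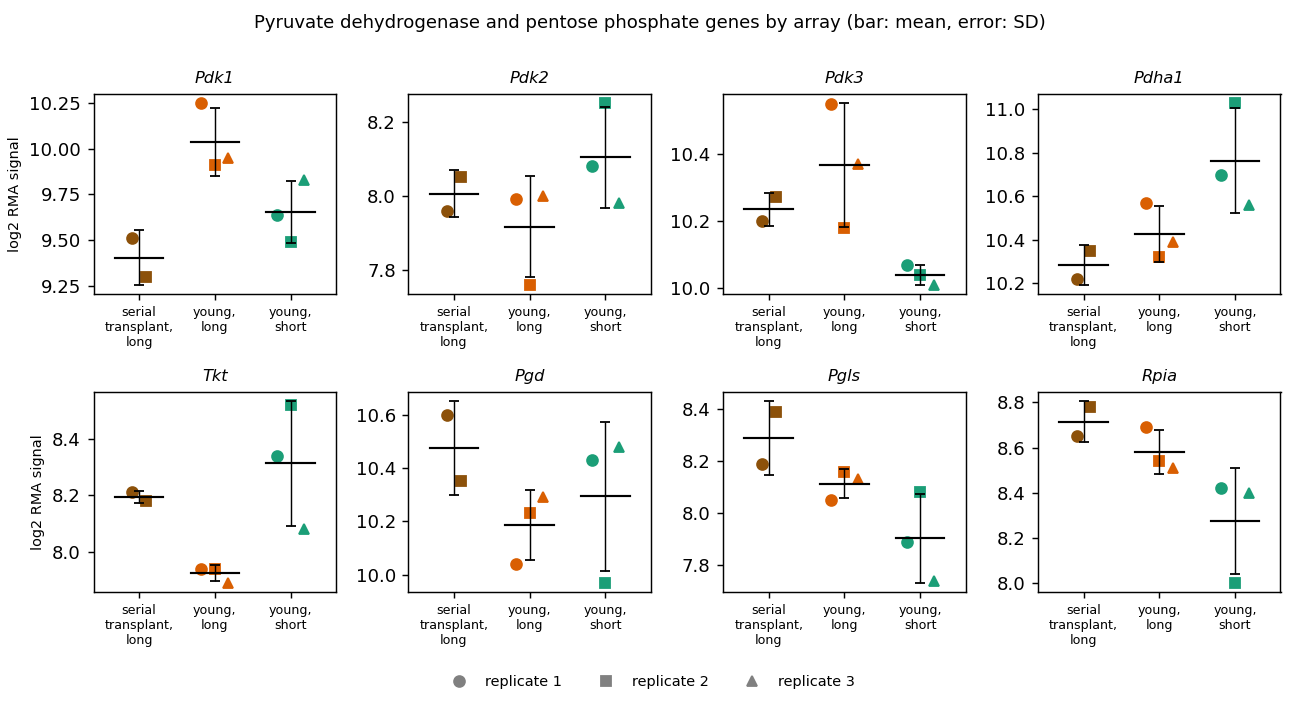
Log2 RMA signal (y axis) of 8 genes of pyruvate dehydrogenase control and the pentose phosphate pathway on each array, by group, with the symbol giving the replicate, the bar the mean and the error bar the SD (2 serial-transplant, 3 young long-culture and 3 short-culture arrays). Pdk1 is highest in the 3 young long-culture arrays, and Tkt is lowest there.

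The serial-transplant line against the young line, both in long culture, asks what the labelled donor age and transplantation add together. None of the 31 members passed in either direction, against 0% of all genes higher and 0% lower (limma, adjusted p under 0.05). At an unadjusted p under 0.05, 3 members and 1438 of 19938 genes differed. These 3 were Pdk1 (-0.63 ± 0.14 log2, SE; limma adjusted p = 0.356), Hk2 (0.54 ± 0.23 log2; limma adjusted p = 0.658) and Pgk1 (-0.26 ± 0.11 log2; limma adjusted p = 0.682), with 2 and 3 arrays. The groups did not overlap in 8 members, 4 higher and 4 lower in the serial-transplant line, while 26.5% of all genes showed no overlap.

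The count of 8 members without overlap is near the 26.5% share of all genes, so no pattern is read from the genes named here. The 4 members with all serial-transplant arrays above all young long-culture arrays were Hk2 and 3 pentose phosphate genes. Pgd read 10.60 and 10.35 in serial-transplant arrays, against 10.04, 10.23 and 10.29 in young long-culture arrays. Pgls read 8.19 and 8.39 in serial-transplant arrays, against 8.05, 8.16 and 8.13 in young long-culture arrays. Tkt read 8.21 and 8.18 in serial-transplant arrays, against 7.94, 7.94 and 7.89 in young long-culture arrays. The changes of these 3 genes were 0.28, 0.17 and 0.28 log2 and did not pass (adjusted p of 0.774, 0.830 and 0.712 in limma). Those with all serial-transplant arrays below were Pdk1, Pgk1, Slc2a1 and Eno2.

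The serial-transplant line in long culture against short culture of young donors shares its short-culture arrays with the first comparison, so the 2 are not independent. Here Pgk1 fell by 0.83 ± 0.11 log2 (SE, n = 2 and 3; limma adjusted p = 0.00351), Eno2 changed by -0.88 ± 0.14 (adjusted p = 0.00513) and Tpi1 by -0.50 ± 0.12 (adjusted p = 0.0289), while Eno3 rose by 0.40 ± 0.11 (adjusted p = 0.0468). The 3 fallers stand against 5.96% of all genes and the 1 riser against 4.10%. With dim probe sets left out, 2 members rose and 4 fell, beside 953 that rose and 1039 that fell of 10899 genes. Aldoa differed by -0.31 ± 0.11 log2 (limma adjusted p = 0.123) and Aldoc by 0.85 ± 0.24 log2 (limma adjusted p = 0.0515). In 15 members the groups did not overlap, 7 higher and 8 lower in the serial-transplant line, while 40.3% of all genes showed no overlap. Without serial-transplant replicate 2 no member passed (adjusted p = 0.0594 for Pgk1 and 0.0899 for Eno2). Eno3 was lost whichever of the 8 arrays was left out (adjusted p = 0.0539 to 0.411), and Tpi1 was lost without either serial-transplant array (0.141 and 0.174), without young long-culture replicate 3 (0.0509) and without short-culture replicate 1 (0.0585) or 2 (0.0563). With short-culture replicate 3 left out 4 members rose (Slc2a3, Pfkp, Aldoc and Slc16a3) and 4 fell, Pdha1 being added (-0.58 log2, limma adjusted p = 0.0323), and with replicate 2 left out 2 rose (Ldhb and Pgls).

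Beside these changes 13 of 20 fibroblast markers fell in young long against short culture (median -0.61 log2), where 6.69% of all genes fell, and 15 of 20 in the serial-transplant line against short culture (median -0.98 log2), where 5.96% did. Fewer fell without young long-culture replicate 1 (7), 2 (8) or 3 (6) in the first of these, and none fell without serial-transplant replicate 2 in the other; with control rows included in the test 7 and 10 fell. Of 9 macrophage markers 4 fell in both comparisons, with Laptm5 at -2.29 log2 in the young line. Of 5 Leydig markers 3 fell in the young line and 2 in the serial-transplant line, with Cyp11a1 at -2.35 and -2.22 log2. Short-culture replicate 2 had the highest fibroblast sum. With this array left out, Eno2 differed by -0.63 log2 (adjusted p = 0.00664) and Pgk1 by -0.50 log2 (adjusted p = 0.0161) in limma for the young line. In the same fit 10 of the 20 fibroblast markers fell (median -0.52 log2), so leaving it out does not remove the difference in fibroblast signal. Of 15 markers of undifferentiated spermatogonia, 3 rose (Nanos3, Ret and Lin28a) and 4 fell (Id4, Bcl6b, Lhx1 and Sohlh1) in the young line. Nanos3 changed by 0.79 and Lhx1 by -1.30 log2, with a list median of 0.04 log2. In the serial-transplant line 2 of the 15 rose and 3 fell. Among the 6 core germ cell markers only Dazl passed in the young line, and it rose (0.46 log2, limma adjusted p = 0.0254). Only Dnd1 passed in the serial-transplant line against short culture, and it rose too (0.48 log2, limma adjusted p = 0.0427). Their list medians were 0.10 and 0.36 log2, and 6.10% and 4.10% of all genes rose in these comparisons. Of 8 Sertoli markers only Wt1 passed in the young line, and it rose (0.90 log2). In the serial-transplant line against short culture Wt1 rose (0.73 log2, limma adjusted p = 0.0344) and Sox9 fell (-1.07 log2, limma adjusted p = 0.0101). The part of these marker changes, and of fibroblast, macrophage and Leydig cell RNA, in the members' changes was not tested.

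Of 56 other listed genes of carbohydrate and pyruvate metabolism 49 were measured. In young long against short culture 3 of them rose and 6 fell (median -0.08 log2), beside 6.10% of all genes that rose and 6.69% that fell, so the count of risers was near the background. With control rows included in the test none rose and 1 fell. Pgm2, a phosphoglucomutase that also handles pentose phosphates, read 7.01 and 6.99 in serial-transplant arrays and 7.37, 7.24 and 7.31 in young long-culture arrays, against 8.28, 8.47 and 7.68 in short-culture arrays. That was a change of -0.83 ± 0.17 log2 in the young line (limma adjusted p = 0.0114), which passed without any of the 8 arrays left out in turn. Gpd2, the mitochondrial glycerol-phosphate dehydrogenase (-0.52), Khk, the fructose kinase (-0.51), and Tktl2, a transketolase-like gene (-0.90), fell too, and Pygl, a glycogen phosphorylase (0.74), and Pgm2l1 (0.52) rose (limma adjusted p = 0.0179 to 0.0286). Without young long-culture replicate 1 or 2 none of the 49 rose and 3 fell, without its replicate 3 none rose and 1 fell, without short-culture replicate 1 only 2 fell, and without short-culture replicate 2 none rose.

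In the serial-transplant line against short culture, 2 of the 49 rose and 4 fell (median -0.09 log2), near the 4.10% of all genes that rose and the 5.96% that fell. The risers were Pdp2, a phosphatase that switches pyruvate dehydrogenase on (1.05 ± 0.20 log2, limma adjusted p = 0.0106), and Pdpr, the regulatory subunit of that phosphatase (0.89 ± 0.18 log2, limma adjusted p = 0.0138). Pdp2 read 8.23 and 8.46 in serial-transplant arrays and 7.63, 7.87 and 7.99 in young long-culture arrays, against 7.29, 6.89 and 7.71 in short-culture arrays. Pgm2 (-1.14), Khk (-0.64), Pfkfb2 (-0.51) and Prps2 (-0.76) were the fallers. Without serial-transplant replicate 2 none of the 49 passed, without its replicate 1 only 1 rose and 1 fell, and without young long-culture replicate 3 or short-culture replicate 1 only 2 fell. Between the serial-transplant and the young line none passed.

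Isozymes listed for the testis, most of which replace somatic forms during meiosis and in sperm, were mostly dim. Slc2a3 and Hk1 on this list are members too and are not testis-specific. Of the 11 listed, the 3 above the median of all probe sets on every array were Slc2a3, the probe set of Hk1 described above and Tktl1, a transketolase-like gene (9.81 to 11.70), and the sperm forms Pgk2 (4.05 to 4.51) and Gapdhs (5.32 to 5.90) were near or below the lower quartile. Pdha2, the testis form of the pyruvate dehydrogenase subunit, was the only one that changed, by -0.92 ± 0.16 log2 in young long against short culture (limma adjusted p = 0.00651), at means of 5.20 and 6.12, both below the median of all probe sets.

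Of 19 measured regulators of glycolytic genes 3 fell and none rose in young long against short culture, beside 6.69% of all genes that fell and 6.10% that rose. These were Myc, which drives glycolytic genes in proliferating cells (-0.95 ± 0.19 log2, limma adjusted p = 0.0108), Ppargc1a, the mitochondrial coactivator PGC-1 alpha (-1.70 ± 0.29, adjusted p = 0.00595), and Prkaa1, a catalytic subunit of the energy sensor AMPK (-0.90 ± 0.19, adjusted p = 0.0128). Myc read 7.09 and 6.76 in serial-transplant arrays and 7.52, 7.18 and 7.13 in young long-culture arrays, against 8.59, 8.31 and 7.79 in short-culture arrays. Ppargc1a lay below the median of all probe sets on every long-culture array (5.61 to 6.24). In short-culture replicates 1, 2 and 3 it read 7.44, 8.58 and 7.23. The same 3 fell in the serial-transplant line against short culture, with Txnip, an inhibitor of glucose uptake, as a further one (-0.63 ± 0.17 log2, limma adjusted p = 0.0450), which passed in 1 of 8 fits that left out an array. Only 1 of the 19 fell for the young line without young long-culture replicate 3, and none fell for the serial-transplant line without serial-transplant replicate 2.

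Hif1a, the oxygen-regulated subunit of hypoxia-inducible factor, read 10.20 and 9.81 in serial-transplant arrays and 10.24, 10.17 and 10.07 in young long-culture arrays, against 10.69, 11.32 and 10.54 in short-culture arrays. It fell by 0.69 ± 0.18 log2 in young long against short culture (limma adjusted p = 0.0346), and passed in 4 of 8 fits that left out 1 array each (adjusted p up to 0.125). Of 28 measured genes of the factor, its regulators and its known targets outside glycolysis, 5 rose, among them P4ha2 (0.54), Ddit4 (0.67), Bnip3l (0.36) and Ankrd37 (1.05), and 2 fell, Hif1a and Hmox1 (-0.35), with limma adjusted p between 0.0189 and 0.0498 and a list median of 0.19 log2. Beside them 6.10% of all genes rose and 6.69% fell, and with control rows included in the test no gene of the list passed in either direction, Hif1a among them. In the serial-transplant line against short culture Egln1, an oxygen sensor of the pathway, rose (0.58) and Hif1a fell (-0.84), and neither passed without serial-transplant replicate 2; Egln1 passed in 5 of 8 fits that left out an array and Hif1a in 7. For the young line, no gene of this list rose without young long-culture replicate 2 or 3 or short-culture replicate 1, and 1 rose without young long-culture replicate 1 and 2 without short-culture replicate 2. Ankrd37 read 8.05 and 9.24 in serial-transplant arrays and 8.44, 8.79 and 8.72 in young long-culture arrays, against 7.21, 7.31 and 8.28 in short-culture arrays, where replicate 3 was again the highest of its group.

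**Figure D5:**
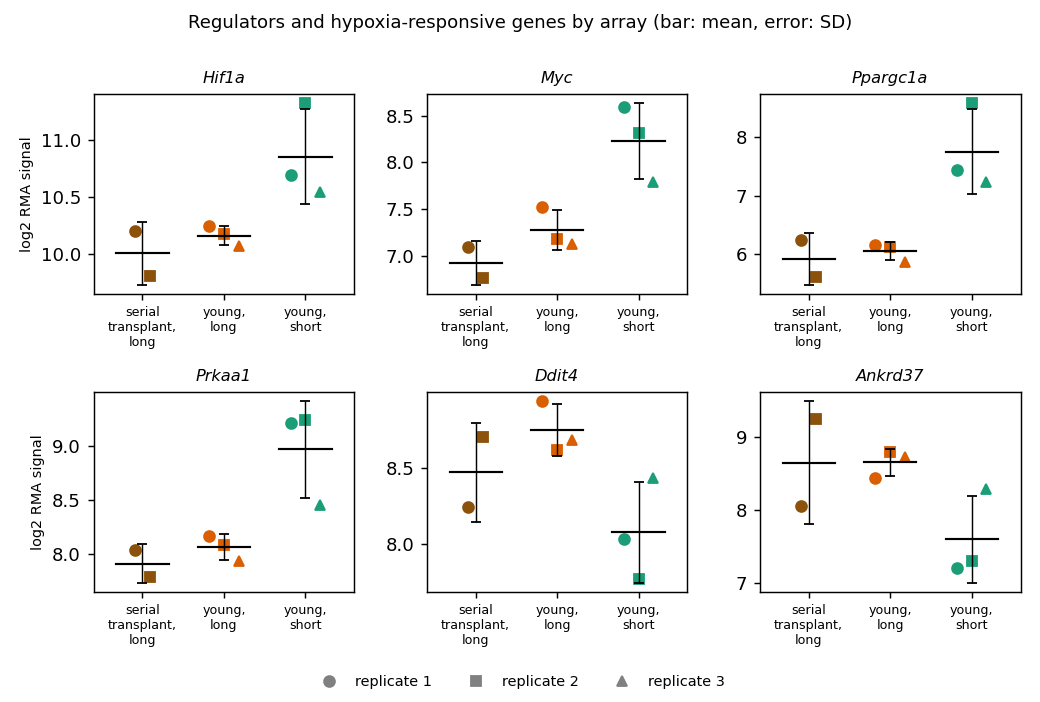
Log2 RMA signal (y axis) of 4 regulators and 2 hypoxia-responsive genes on each array, by group, with the symbol giving the replicate, the bar the mean and the error bar the SD (2 serial-transplant, 3 young long-culture and 3 short-culture arrays). Hif1a, Myc, Ppargc1a and Prkaa1 lie lower on all long-culture arrays than on any short-culture array.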

How the data were processed

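The deposited values are log2 signals per probe set and array, made by the authors; the submitters' processing notes name RMA and Partek 6.4 but no settings, and the log2 scale was read from the values (2.42 to 14.81). RMA gives no detection call. Of 35557 rows, the opening run of 6614 consecutive identifiers, none with a gene, was taken to be control probe sets and left out, which left 28943. Genes were named through probe sets with 1 symbol (21789; 1621 have several and 5533 none) and a RefSeq table of GRCm38.p6, which held 21698 of them. Differences were tested with limma 3.58.1 in R 4.3.3 (1 coefficient per group over all 8 arrays, degrees of freedom 5 residual and 6.28 prior), with two-sided p-values adjusted over all 28943 probe sets. The fit was tested on simulated data. Values on every array are given for members that passed in any comparison and for the members of a preset list of rate-controlling steps; further members and genes were given by array after their values were seen. From each wider list at most 6 genes per comparison were named, by smallest p. Members, lists and tests were chosen with earlier results of these data known; the isozyme pairs, the regulators shown by array and the RefSeq probe-set alternative were chosen after seeing the values. No arrays held identical values.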

Additional observations from a re-analysis of the deposited data

How the results depend on the processing

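The members called higher in young long against short culture (0 with all arrays) numbered 3 with array weights or with centring on probe sets of middle level, 1 with dim probe sets left out, quantile normalization, median centring or the replicate block, and 0 to 5 with 1 array left out. Those called lower (4) numbered 2 with all rows tested and 2 to 4 with 1 array left out. In the serial-transplant line against short culture, the members called higher (1) numbered 0 with only the 2 groups compared or all rows tested, 2 with array weights, dim probe sets left out or the replicate block, 3 with median centring and 4 with centring on probe sets of middle level, and 0 to 4 with 1 array left out; those called lower (3) numbered 0 to 4 with 1 array left out. No member passed between the 2 long-culture lines under any of the 19 settings. Eno2 and Pgk1 passed under all 11 settings other than leaving out 1 array, in both comparisons with short culture (Eno2 -0.78 to -0.70 and -0.90 to -0.81 log2, Pgk1 -0.63 to -0.50 and -0.88 to -0.77). Aldoa passed under 6 of these 11 for the young line, Tpi1 under 10 and 9, and Eno3 under 6 in the serial-transplant line. Some members that missed the test in the fit used throughout also passed under some of the 11. Aldoc did so under 5 in the serial-transplant line against short culture, and Eno3 under 5 in the young line. No called member changed direction, and 16 uncalled values changed sign under some setting. Deviations from the group means correlated between -0.27 and 0.18 for same-numbered arrays of different groups, and between -0.28 and 0.27 for the others. With 2 or 3 arrays a group these deviations depend on each other, so whether replicate numbers pair the arrays cannot be decided. The count of all genes called in young long against short culture (1217 higher and 1334 lower) was 1845 and 1962 with array weights, 537 and 580 with all rows tested, 1647 and 1027 with centring on probe sets of middle level, and 380 to 1138 and 476 to 1416 with 1 array left out. In the serial-transplant line against short culture (818 and 1189) it was 309 and 518 with all rows tested, 376 and 617 with only the 2 groups compared, 1037 and 994 or 1108 and 975 with the centrings, and 12 and 35 without serial-transplant replicate 2. Between the long-culture lines (0 and 0) it was 2 and 14 with array weights, 1 and 12 with only the 2 groups, 1 and 3 with the replicate block and 1 and 7 without short-culture replicate 2. The cause of these shifts was not tested, except that all rows tested and 1 array fewer change what enters the fit. The limits are 2 or 3 arrays a group and, for Pdk4, Pgk2 and Gapdhs, signals near background.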
